A study of Mus musculus with 8 samples.

Results

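Astrocyte, oligodendrocyte and cerebellar marker genes were examined in the mouse trigeminal ganglion, to see how far they vary with genotype and how far with signs of central and other neighbouring tissue on each array. The 8 genes were Gfap, Aqp4 and Slc1a2 (astrocytes), Cbln1 and Zic1 (cerebellum and hindbrain) and Mog, Olig1 and Olig2 (oligodendrocytes). They were taken as every probe set whose platform annotation names one of these symbols alone, which gave 8 of 18193 genes and 19 of 45037 probe sets: 3 each for Gfap, Aqp4 and Cbln1, 5 for Slc1a2, 2 for Zic1 and 1 each for Mog, Olig1 and Olig2. A further probe set names Slc1a2 together with another gene and was left out.

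Ganglion RNA was read on 8 arrays (Affymetrix Mouse Genome 430 2.0), with 4 control and 4 transgenic samples; the transgene encodes daDREAM, a mutant of the calcium-binding transcriptional repressor DREAM (gene Kcnip3) designed to stay active. All animals, controls included, were labelled as adult males of strain C57B/6XCBA studied in the light phase, and every transgenic title carries the tag tg16. The sources used here do not state the promoter that drives the transgene, whether the transgenic animals come from a single founder line, or whether an array holds 1 animal or a pool. Values are log2 RMA expression values, differences are daDREAM minus control, and to pass means an adjusted p under 0.05 in a limma fit over the whole array.

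Astrocytes are the star-shaped glia of the brain and spinal cord, and Gfap, their intermediate filament protein, rises when they react to injury. In sensory ganglia the neurons are wrapped by satellite glia instead, which share many astrocyte genes and also make more Gfap after nerve injury. Myelin is made by oligodendrocytes in the central nervous system and by Schwann cells in peripheral nerve, and the trigeminal root crosses from one to the other where it joins the hindbrain. DREAM binds DNA elements with the core GTCA, and Gfap is among the genes reported to be controlled by it.

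The start of the Gfap gene is shown because Gfap had the largest difference of the set, beside Zic1, the next largest gene, and Slc1a2, the gene with the smallest difference at its brightest probe set. Each line holds the 250 bases before the transcription start from RefSeq (GRCm38.p6), 5′ to 3′ on the gene's strand, with every GTCA, read on either strand and so printed as GTCA or TGAC, in capitals. Gfap lies at chr11:102897201-102897450 on the minus strand, Zic1 at chr9:91365769-91366018 on the minus strand and Slc1a2 at chr2:102706188-102706437 on the plus strand.
Gfap: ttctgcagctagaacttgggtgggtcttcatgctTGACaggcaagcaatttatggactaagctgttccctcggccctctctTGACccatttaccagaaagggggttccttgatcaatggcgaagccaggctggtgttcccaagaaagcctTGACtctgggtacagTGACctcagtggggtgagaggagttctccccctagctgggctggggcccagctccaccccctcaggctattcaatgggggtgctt
Zic1: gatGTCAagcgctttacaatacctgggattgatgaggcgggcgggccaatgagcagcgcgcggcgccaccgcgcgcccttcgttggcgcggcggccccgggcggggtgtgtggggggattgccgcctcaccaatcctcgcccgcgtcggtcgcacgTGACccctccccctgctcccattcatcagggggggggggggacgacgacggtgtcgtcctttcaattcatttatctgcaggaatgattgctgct
Slc1a2: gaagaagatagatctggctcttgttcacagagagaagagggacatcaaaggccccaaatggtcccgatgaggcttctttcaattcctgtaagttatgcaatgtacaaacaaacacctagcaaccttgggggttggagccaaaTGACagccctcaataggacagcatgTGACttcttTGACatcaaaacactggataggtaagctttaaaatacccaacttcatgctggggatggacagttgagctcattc
GTCA was found 4 times in the Gfap window, 2 times in that of Zic1 and 3 times in that of Slc1a2, with the Gfap matches starting 216, 169, 100 and 85 bases before the start. Of 32851 windows of the same length, 80.2% held at least 1 match, with a median of 2, and the same letters are part of the AP-1 and CRE elements. The STAT motif TTCNNNGAA, searched because STAT3 drives Gfap in astrocytes, was in none of the 5 windows found for these genes and in 7.02% of all windows. Sites farther than 250 bases before the start were not searched, so a STAT site there would not have been seen. RefSeq windows were found for Gfap, Slc1a2, Zic1, Mog and Olig2.

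The genes were chosen by their differences between the groups on these same arrays, so those differences are only described here. The adjusted p-values printed for the 8 genes, here and below, come from that same contrast and add no support. In bulk tissue, a change in the number of cells of a type and a change in RNA per cell cannot be told apart. Of the 19 probe sets, 18 read higher in daDREAM ganglia and 1 lower, where 48.1% of all probe sets read higher. The adjusted p was under 0.05 at 4 of them, 1 of Gfap and all 3 of Aqp4, all higher, where 2.74% of all probe sets passed in either direction and 1.42% as higher. The groups did not overlap at 5, also higher, where 11.0% of all probe sets did not overlap in either direction and 5.13% as higher. At the brightest probe set of each gene, all 8 genes read higher and 1 of 8, Aqp4, passed, where 2.00% of all genes passed in either direction, 0.984% as higher and 1.02% as lower. Without single arrays or sets of arrays, 2 to 5 of the 19 probe sets passed.

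**Figure D1:**
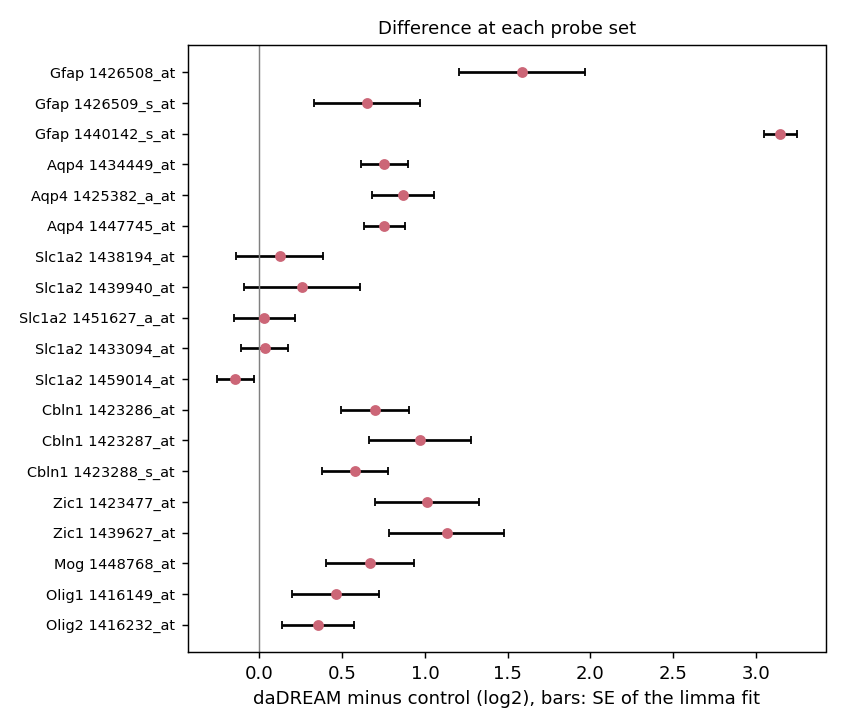
Difference between group means (daDREAM minus control, log2) at each of the 19 probe sets, with the standard error of the limma fit as bars and a line at 0. The dimmest Gfap probe set stands apart at 3.15, while the 5 Slc1a2 probe sets lie between -0.15 and 0.26.

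Gfap read higher at each of its 3 probe sets, by differing amounts. At the brightest, 1426508_at, control arrays 1 to 4 read 8.63, 10.20, 10.22 and 8.29, and daDREAM arrays 1 to 4 read 10.78, 10.89, 11.24 and 10.77. Every daDREAM array was above every control array, but the control arrays fell into a low pair (1 and 4) and a high pair (2 and 3). The means were 9.34 ± 1.02 and 10.92 ± 0.22 (SD, n = 4 each), a difference of 1.58 (SE 0.38) or 3.0-fold.

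At the next probe set, 1426509_s_at, control arrays read 9.01, 9.91, 10.18 and 8.36 and daDREAM arrays 9.79, 9.93, 10.38 and 9.96. The same pair of control arrays was low, control arrays 2 and 3 lay among the daDREAM values, and the groups overlapped. The difference was 0.65 (SE 0.32), from 9.37 ± 0.84 to 10.02 ± 0.25 (n = 4 each), and 0.32 without control 4 alone.

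At the dimmest, 1440142_s_at, control arrays read 5.90, 5.89, 5.98 and 5.68 and daDREAM arrays 8.82, 8.93, 9.15 and 9.14. Every daDREAM array was above every control array. All 4 control values lay under a log2 value of 6, near background, where a low pair of control arrays could not show and the spread of the controls cannot be read. The means were 5.86 ± 0.13 and 9.01 ± 0.16 (n = 4 each), a difference of 3.15 (SE 0.10) or 8.86-fold, and the level of the controls also limits how far the fold can be read.

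**Figure D2:**
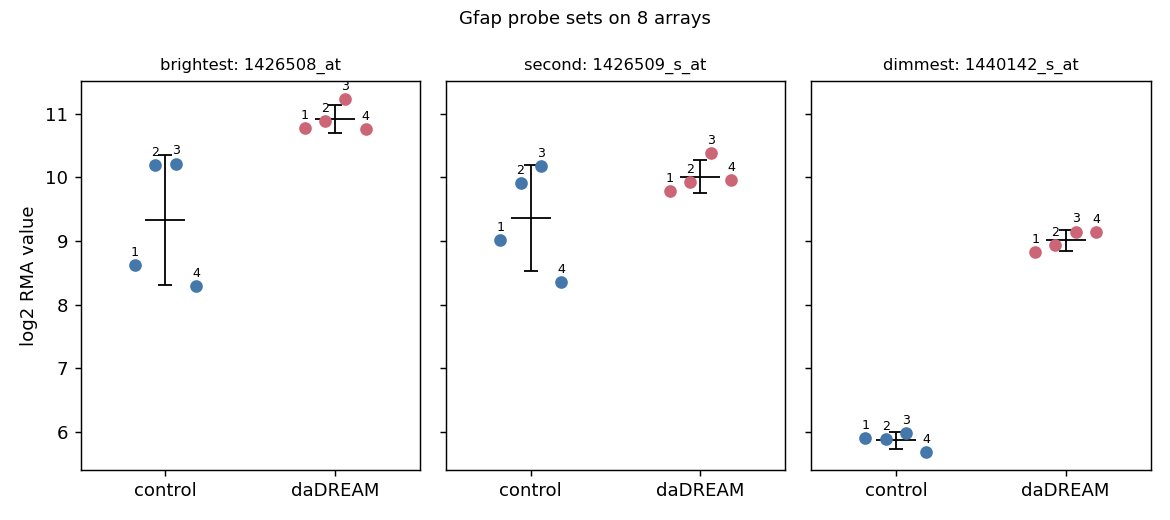
Log2 RMA value of the 3 Gfap probe sets (panels) on the 4 control and 4 daDREAM arrays; numbers are replicate numbers, and the bar with whiskers is the mean ± SD. Control replicates 1 and 4 are low at the brightest and the next probe set; at the dimmest all control arrays lie under 6, near background, and the groups are 3.15 apart.

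The 3 probe sets did not differ between the groups by the same amount. The next probe set minus the brightest read -0.29 to 0.38 on control arrays and -0.99 to -0.81 on daDREAM arrays. The dimmest minus the brightest read -4.31 to -2.61 and -2.09 to -1.63, with the dimmest near background in controls. The cause was not tested. The suffix _s_at marks probes that can match more than 1 transcript, and the sources used here do not state which part of the gene each probe set covers.

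The 2 control arrays low in Gfap were also the 2 with the most signal at the 18S ribosomal RNA control probe sets. The mean of these probe sets was 9.41 on control 1 and 10.65 on control 4, and between 7.71 and 8.11 on the other 6 arrays. Without those 2 arrays the Gfap difference was 0.71 (1.64-fold) at the brightest probe set, -0.03 at the next and 3.08 (8.43-fold) at the dimmest. The part of 18S signal in the Gfap values was not tested; with them removed 2 control arrays were left.

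Aqp4, the water channel of astrocyte endfeet, read higher at each of its 3 probe sets. At the brightest, 1434449_at, control arrays read 10.65, 10.41, 11.07 and 10.43 and daDREAM arrays 11.25, 11.25, 11.56 and 11.52. The groups did not overlap, and control 3 came nearest to the daDREAM arrays. The difference was 0.76 (SE 0.14), from 10.64 ± 0.31 to 11.40 ± 0.17 (n = 4 each), or 1.69-fold. The other probe sets differed by 0.87 (SE 0.19), where control 3 (10.49) reached the lowest daDREAM array (10.47), and by 0.76 (SE 0.12) with no overlap. At the brightest, the difference ranged from 0.66 to 0.90 under the alternatives tried. Its adjusted p missed the threshold without the arrays with the most 18S (limma adjusted p = 0.140), without those with the most Gabra6 (0.159) and without daDREAM 3 (0.0537). Without the most 18S none of the 3 probe sets passed with limma, with differences of 0.66, 0.77 and 0.76, and 1425382_a_at passed in 6 of 16 alternatives.

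Slc1a2, the main glutamate transporter of astrocytes, had the smallest difference of the 8 genes at its brightest probe set. Its brightest probe set, 1438194_at, read 11.21, 10.80, 11.89 and 10.71 on control arrays and 10.75, 11.59, 11.72 and 11.04 on daDREAM arrays. The highest array of all was control 3 and the lowest control 4, so the groups overlapped throughout. The difference was 0.12 (SE 0.26), and the other 4 probe sets read between -0.15 and 0.26, of which the lowest, 1459014_at, had group means under 6. The sign at 4 of the 5 probe sets was that of a higher daDREAM mean, but each of the 5 changed sign under at least 1 alternative.

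Cbln1, a secreted synapse organiser made by cerebellar granule cells, read higher at 3 of 3 probe sets. The brightest, 1423286_at, read 9.14, 9.33, 9.37 and 8.52 on control arrays and 9.97, 9.64, 10.20 and 9.35 on daDREAM arrays. The groups touched, with daDREAM 4 just below control 3, and control 4 was the lowest array. The difference was 0.70 (SE 0.21), from 9.09 ± 0.39 to 9.79 ± 0.37 (n = 4 each), and the other probe sets differed by 0.97 (0.63 without control 4) and 0.58.

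Zic1, a zinc finger transcription factor of the dorsal hindbrain and cerebellum, showed the widest spread inside the daDREAM group. Its brighter probe set, 1423477_at, read 9.67, 10.14, 9.81 and 8.91 on control arrays and 11.39, 9.99, 11.03 and 10.17 on daDREAM arrays. DaDREAM arrays 1 and 3 stood well above the rest, while daDREAM 2 lay below control 2. The difference was 1.01 (SE 0.31), from 9.63 ± 0.52 to 10.64 ± 0.67 (n = 4 each), and 1.13 (SE 0.35) at the other probe set.

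The arrays high in Zic1 were high in genes of cerebellar neurons. Gabra6, a GABA-A receptor subunit of cerebellar granule cells, read 7.21, 8.24, 6.42 and 6.23 on control arrays and 9.96, 7.05, 9.14 and 7.55 on daDREAM arrays. The Purkinje cell gene Pcp2 read 9.97 and 9.12 on daDREAM 1 and 3, 8.53 on control 2, and 7.36 to 7.48 on the other 5 arrays. Without daDREAM 1 and 3, a choice made after seeing the data, the difference was 0.45 for Zic1 and 0.41 for Cbln1 at their brightest probe sets. It was 1.495 for Gfap and 0.75 for Aqp4 at theirs. Zic1 and Cbln1 were highest on the arrays left out, so a smaller difference was fixed in advance. Gfap and Aqp4 varied little among daDREAM arrays (SD 0.22 and 0.17), so theirs could change little. The part of cerebellar tissue in the values of Zic1 and Cbln1 was not tested.

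Mog, a protein of the outer surface of central myelin that is not part of Schwann cell myelin, was above a log2 value of 6 on every array. It read 8.40, 8.29, 9.32 and 8.64 on control arrays and 8.78, 8.98, 9.62 and 9.95 on daDREAM arrays. Control 3, daDREAM 3 and daDREAM 4 were the high arrays, and the groups overlapped. The difference was 0.67 (SE 0.27), from 8.66 ± 0.46 to 9.33 ± 0.55 (n = 4 each).

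Olig1 and Olig2, neighbouring transcription factor genes that specify oligodendrocytes, differed less. Olig1 read 10.13, 9.93, 10.84 and 9.81 on control arrays and 9.85, 10.72, 11 and 10.98 on daDREAM arrays. Olig2 read 7.57, 7.32, 8.09 and 7.56 on control arrays and 7.36, 8.16, 8.5 and 7.93 on daDREAM arrays. In both genes control 3 was the highest control array and daDREAM 1 the lowest transgenic one, within the range of the other controls. The differences were 0.46 (SE 0.26) for Olig1 and 0.35 (SE 0.22) for Olig2. Without daDREAM 1 they were 0.72 and 0.56, and without daDREAM 3 that of Olig2 was 0.18.

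**Figure D3:**
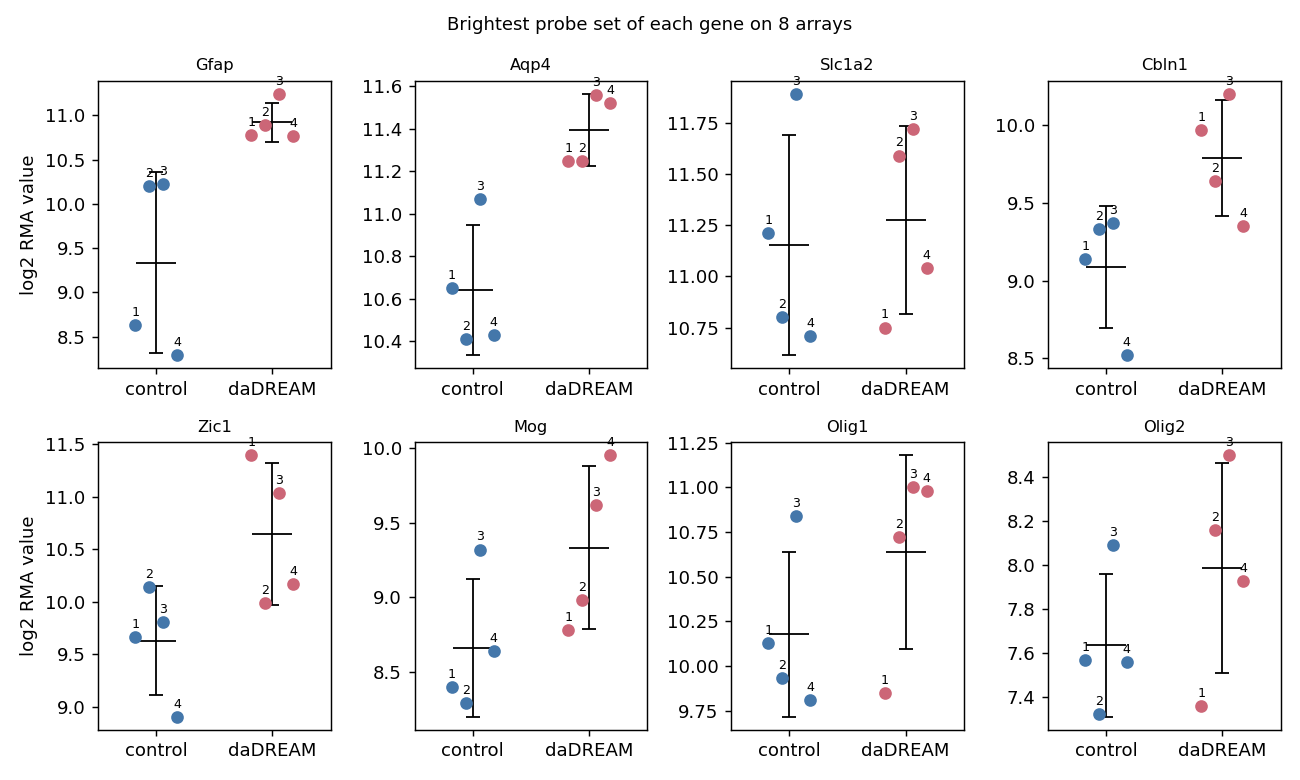
Log2 RMA value of the brightest probe set of each of the 8 genes on each array, numbered by replicate, with the mean ± SD (n = 4 arrays a group); each panel has its own axis. Groups do not overlap for Gfap and Aqp4, and overlap for the other 6 genes.

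The 3 arrays high in Mog were also the 3 with the most growth hormone (Gh), a pituitary transcript that sensory ganglia do not make. Gh read 11.15 on control 3, 12.50 on daDREAM 3 and 13.43 on daDREAM 4, and 9.04 to 10.66 on the other 5 arrays. Without these 3 arrays the difference was 0.44 for Mog, 0.33 for Olig1, 0.28 for Olig2 and 0.75 for Aqp4 at its brightest probe set. DaDREAM 2 had the lowest Gh (9.04) but read 10.72 for Olig1 and 8.16 for Olig2. Slc6a5, a gene of inhibitory neurons, read 8.35, 7.84, 8.79 and 7.30 on control arrays and 7.50, 8.86, 9.04 and 7.81 on daDREAM arrays. The part of neighbouring tissue taken up with the ganglion was not tested.

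Variation inside a genotype was not used to choose the genes. Deviations from the group mean were therefore compared over the 8 arrays between Gfap and each of the 7 other genes at their brightest probe sets. Cbln1 came closest, with Pearson r = 0.70 (two-sided exact permutation within groups, p = 0.00868, Benjamini-Hochberg adjusted p = 0.0608 over 7 relations) and Spearman rho = 0.81 (exact permutation p = 0.0174, adjusted p = 0.122). Zic1 gave r = 0.54 (exact p = 0.0920, adjusted p = 0.322) and rho = 0.55 (exact p = 0.188). The other 5 gave r from 0.25 for Mog to 0.46 for Slc1a2, with exact p from 0.297 to 0.689 and rho from 0.12 to 0.55. No relation passed the adjustment. Without control 3 and 4, the arrays farthest from the median of Gfap, r was 0.42 for Cbln1 and 0.34 for Zic1. These relations therefore rest in part on those arrays. Most of the spread of Gfap within groups lay in the controls (SD 1.02, against 0.22 in daDREAM), where control 1 and 4 were low. Control 1 and 4 also had the most ribosomal RNA control signal. Leaving out control 3 and 4 keeps control 1 and 2, so the check does not remove this split. The part of ribosomal RNA signal in these relations was not tested.

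The genes most like Gfap in this respect were not astrocyte markers of the lists used here. Among 1904 genes with a mean of at least 7 and a within-group SD of at least 0.2, the highest r with the brightest Gfap probe set over 8 arrays was that of Mt3 (0.991), a brain metallothionein, followed by Ptp4a3 (0.990), a tyrosine phosphatase, Man1b1 (0.990), an enzyme of protein quality control, Scly (0.989), selenocysteine lyase, and Mocs3 (0.989), of molybdenum cofactor synthesis. These were picked as the highest of many, so r is a description. Mt3 read 10.43, 11.81, 11.75 and 10.18 on control arrays and 11.27 to 11.72 on daDREAM arrays, with the same low pair of control arrays, 1 and 4, as Gfap and means 0.47 apart (limma adjusted p = 0.462). Cbln1 stood at rank 514 and Aqp4 at rank 1065 of these 1904 genes.

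For Zic1 and Mog the same measure, added after their values were seen, named other genes. Closest to Zic1 were Timm50 (r = 0.965), the glutamate transporter Slc1a6 of Purkinje cells (0.951), Cbln3 (0.950) and Neurod1 (0.944), the latter genes of cerebellar granule cells, and Bmp6 (0.940). Closest to Mog were Cldn11 (0.976), a claudin of oligodendrocyte myelin, and Klk6 (0.954), a protease of oligodendrocytes, then Emilin2, Rflnb and Tspan2 (0.949 to 0.952).

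**Figure D4:**
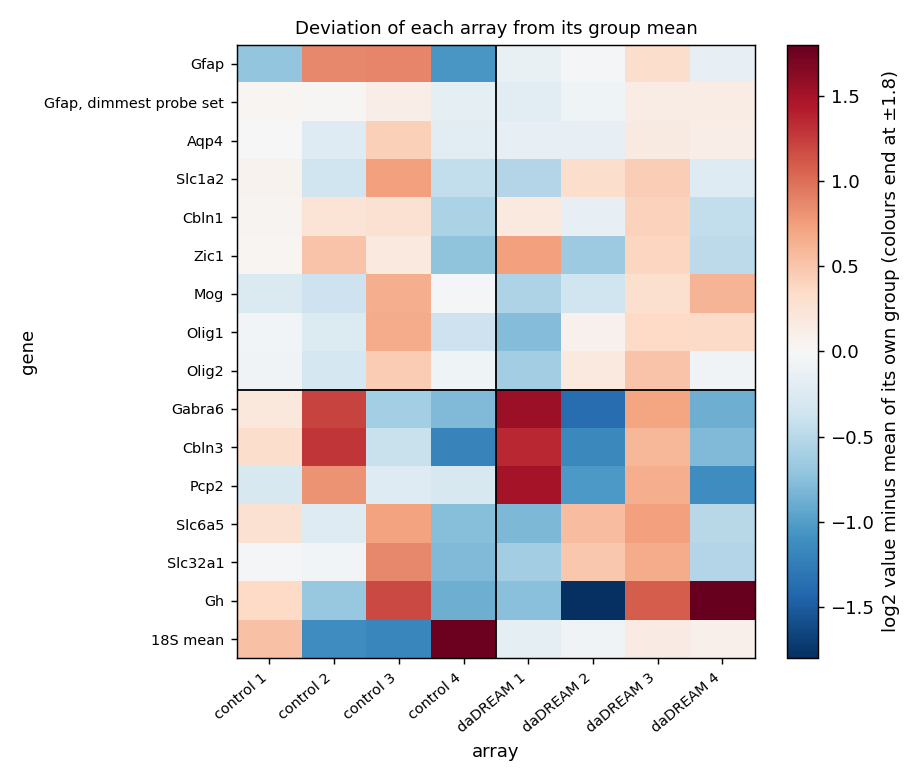
Log2 value of each array minus the mean of its own group, for the brightest probe set of each of the 8 genes and the dimmest of Gfap (above the line) and for cerebellar (Gabra6, Cbln3, Pcp2), inhibitory neuron (Slc6a5, Slc32a1), pituitary (Gh) and 18S signals (below it); colours end at ±1.8. Gfap is low on control 1 and 4 where 18S is high, and Zic1 is high on daDREAM 1 with Gabra6; the control values of the dimmest Gfap probe set lie near background.

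Other genes of these cell types were counted from lists chosen with earlier results of these data known, at the brightest probe set of each gene. Over all genes 2.00% passed and 18.2% had an unadjusted p under 0.05, against which the counts of each list are to be read. Of 25 astrocyte genes, 1 rose, 0 fell and 24 did not pass; 12 had an unadjusted p under 0.05 and 23 read above 0, where 50.5% of all genes did, and the median difference was 0.25 against 0.00 over all genes. The gene that rose was Gjb6, a gap junction connexin of astrocytes, which read 9.29, 9.38, 9.78 and 8.99 on control arrays and 9.91, 10.03, 10.19 and 10.05 on daDREAM arrays. Its groups did not overlap, and the means lay 0.69 apart (SE 0.14, with limma an adjusted p = 0.0289). The count was 0 without control 1, control 2 or daDREAM 2, 3 or 4, and 3 without control 3. It was also 0 without the arrays with the most 18S, the most Gh or the most Gabra6, where Gjb6 differed by 0.47, 0.75 and 0.68 with fewer arrays in the fit. Many of these genes, such as Fabp7, Kcnj10, Glul and Apoe, are also made by satellite glia. The mean log2 value of the list was 10.05 to 10.57 on control arrays and 10.46 to 10.84 on daDREAM arrays.

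Of 22 measured hindbrain and cerebellar genes, 0 passed with limma (4 at an unadjusted p under 0.05), with 13 read above 0 and a median difference of 0.09. Cbln4, a relative of Cbln1, differed by 0.78 (limma adjusted p = 0.0568), and Gabra6 by 1.40 (limma adjusted p = 0.251). Without control 3 the count was 1, Cbln4. The list's mean was 6.17 to 6.46 on control arrays and 6.29 to 6.84 on daDREAM arrays, and 5 of the 22 genes lay under 6 in both groups, near background. Of 15 measured central neuron genes, 0 passed with limma (2 at an unadjusted p under 0.05), with a median of 0.30 (Camk2a at -0.18, Neurod1 at 0.86).

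Of 17 central oligodendrocyte genes, 0 rose and 1 fell, with 5 at an unadjusted p under 0.05, 14 above 0 and a median difference of 0.28. The gene that fell was Aspa, the aspartoacylase of oligodendrocytes, at -0.65 (SE 0.06, limma adjusted p = 2.34e-04). Aspa read 10.95 to 11.06 on control arrays and 10.30 to 10.40 on daDREAM arrays, with no overlap. Hapln2, a link protein at nodes of central axons, differed by 0.61 without passing (limma adjusted p = 0.0978). The count was 3 without control 3, where Hapln2 and Klk6 rose, and 2 without daDREAM 1, where Hapln2 rose. The list's mean was 8.83 to 9.26 on control arrays and 8.81 to 9.44 on daDREAM arrays. The part of central tissue in the differences of the 8 genes was not tested.

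Of 17 measured genes of peripheral glia, 0 passed with limma (5 at an unadjusted p under 0.05), with 8 above 0 and a median of -0.01; Lgi4 differed by -0.38 (limma adjusted p = 0.0870) and Scn7a by -0.40 (limma adjusted p = 0.0931). Without daDREAM 4 the count was 1, Egr2 at -0.58. This list is not of peripheral glia alone. Fabp7 and Kcnj10 are counted in the astrocyte list too, and oligodendrocytes also make myelin genes such as Mbp and Mag. The difference between this list and the central lists was not tested.

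Among 16 genes that rise in reactive glia, 1 rose and 2 fell. Lcn2 rose by 0.54 (limma adjusted p = 0.0117) from a control mean of 5.63, near background. Gbp2, an interferon-induced GTPase, fell by 0.88 (limma adjusted p = 0.00681) and ceruloplasmin (Cp) by 0.63 (limma adjusted p = 0.0176). The filament genes Vim and Nes, which rise with Gfap in reactive astrocytes, differed by -0.05 and -0.06. Of 8 Cp probe sets 2 passed over probe sets and the dimmest read 0.20. Gbp2 alone passed without the arrays with the most 18S or the most Gabra6, and none without those with the most Gh, where Lcn2 differed by 0.50, Gbp2 by -0.74 and Cp by -0.64 with fewer arrays in the fit. Cp did not pass with the mean of its probe sets (a difference of -0.31), nor without control 2, daDREAM 2 or daDREAM 3, where Serpina3n rose without control 2 and Tnc without daDREAM 3.

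Of 25 regulators of Gfap, among them Stat3, Lifr, Nfia and the PACAP receptor Adcyap1r1, 0 passed with limma (5 at an unadjusted p under 0.05). Dnmt1, the maintenance DNA methyltransferase, differed by 0.25 (limma adjusted p = 0.148) and Bmp4 by 0.30 (limma adjusted p = 0.181). Stat3, which activates the Gfap promoter, differed by 0.17. Kcnip3 read 10.23 ± 0.15 in control and 10.26 ± 0.07 in daDREAM ganglia at its brighter probe set, and 8.89 ± 0.32 and 9.17 ± 0.18 at the other, a difference of 0.27 (limma adjusted p = 0.346; n = 4 each). The sources used here do not state whether its probe sets detect the transgene.

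Genes of sensory neurons were measured as a sign of the labelled tissue, with no other tissue to compare. Of 14 measured sensory neuron genes, with list means from 11.45 to 11.68 over all arrays, 0 passed with limma (1 at an unadjusted p under 0.05), the smallest p being those of Runx1 at -0.24 and Nefh at 0.15. Pituitary and skeletal muscle genes were measured as well, and 2 of each list lay under 6 in both groups. Of 8 pituitary genes 0 passed, with 0 at an unadjusted p under 0.05 (Gh at 1.45 and Cga at 0.70). Of 13 skeletal muscle genes 0 passed, with 9 at an unadjusted p under 0.05 and a median difference of -0.65. Myl1 was at -0.99, and Pvalb, at 0.34, was the only 1 of the 13 above 0. Pvalb, also among the 9, read from 11.57 to 12.30, above the other genes of the list on every array. Whether its signal came from muscle was not tested. Acta1, a muscle actin, read 9.20 and 9.40 on control 1 and 3 and at most 7.07 elsewhere.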

How the data were processed

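The authors deposited 1 log2 value per probe set and array, and the submitters' processing notes name RMA and affy; the sources used here state neither the package version nor the probe set definitions. Each array was 1 column, with 8 in all, values from 3.39 to 14.94 and array medians from 7.09 to 7.13. RMA removes any shift shared by most genes. Of 45101 rows, 64 control probe sets were left out of the tests; 34945 carried 1 symbol, 932 several and 9160 none. The brightest single-symbol probe set by mean stood for a gene, which gave 18193 genes.

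Group differences were fitted two-sided by lmFit and eBayes of limma 3.58.1 (R 4.3.3) over all genes or all probe sets, with Benjamini-Hochberg adjustment. Within-group relations used all 576 reorderings of arrays within groups. Figures used matplotlib 3.10.9. Named genes were all 8 genes, list members that passed or otherwise the 2 with the smallest p, and the 5 genes most like Gfap; others were named after their values were seen. The genes and lists were chosen with earlier results of these data known. Replicates are named biological by the series, with their source not stated further, and p-values cover only the spread between arrays. The number of arrays limits the precision. Alternatives were median centring, renewed quantile normalization, a replicate block, another variance prior, a minimum mean of 6, the mean of probe sets, leaving out each array, and leaving out the arrays with the most 18S or Gh; leaving out those with the most Gabra6 was chosen after seeing the data.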

Additional observations from a re-analysis of the deposited data

Results flagged for a closer look

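In a group of 4 arrays, an array was singled out where its gap to the nearest other exceeded the share of the group's range that Dixon's test sets at the 95% level. Of 100 groups checked 2 met this, and chance gives about 1 in 20. For Slc1a2 at probe set 1439940_at, control 3 read 9.24, against 7.85 on the next control array. For Pcp2, a Purkinje cell gene, control 2 read 8.53, against 7.48 on the next.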

How the results depend on the processing

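Differences of the 8 genes moved by less than 1 SD of replicates in 309 of 311 values under the alternatives. The exceptions were the brighter Gfap probe sets without control 1 and 4, at 0.71 and -0.03. That SD is wide for several genes: single arrays moved 1426509_s_at of Gfap, 1 probe set of Cbln1, Olig1, Olig2 and Slc1a2 by over 1.5 times. The dimmest Gfap probe set ranged from 3.05 to 3.21. The r between Gfap and Aqp4 and that between Gfap and Slc1a2 turned to -0.33 and -0.081 without the 2 arrays farthest from the median of Gfap; the cause was not tested.

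Over the whole array 364 genes and 1236 probe sets passed. The replicate block gave 672 genes and 2017 probe sets, with 11 of the 19 probe sets of the 8 genes (Gfap 2, Aqp4 3, Cbln1 3, Zic1 2 and Mog 1), and its list counts were astrocyte 6, hindbrain and cerebellum 1, central oligodendrocyte 3, central neuron 1, peripheral glia 1 and reactive glia 5. Same-numbered arrays deviated together with correlations of 0.25, 0.015, 0.30 and 0.34, and arrays of unlike number were not compared. Whether the numbers mark pairs was not tested, and the main fit did not pair them. Without the most 18S, 227 genes and 760 probe sets passed (astrocyte 0, reactive glia 1), without the most Gh, 98 and 392 (0 and 0), and without the most Gabra6, 122 and 398 (0 and 1). Fewer arrays enter these fits. Leaving out each array gave 229 to 349 genes, 755 to 1271 probe sets, astrocyte 0 to 3, hindbrain and cerebellum 0 to 1, central oligodendrocyte 1 to 3, peripheral glia 0 to 1 and reactive glia 2 to 3. The lowest counts of genes were 229 without daDREAM 2 and 236 without daDREAM 3, which gave 755 and 783 probe sets. A log2 value under 6 is near background and limits what the dimmer probe sets can show.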
